A study of Mus musculus with 84 samples.

Results

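The genes described here are 10 genes, mostly of ribosome production, that are widely used as targets of the transcription factor Myc: Ncl, Npm1, Fbl, Nop56, Nop58, Nolc1, Dkc1, Rrs1, Bop1 and Odc1. They were chosen by name, with earlier results of these data known, from the 18909 genes of the count table. All 10 had a row and passed the filter on low counts in both models fitted. Of these, 9 encode proteins of the nucleolus. Odc1 encodes ornithine decarboxylase, an enzyme of polyamine synthesis outside the nucleolus, so that "nucleolar" does not cover it.

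Gene expression had been measured during the reprogramming of mouse fibroblasts to pluripotency in 10 groups of 3 biological replicates, all of strain background 129. The groups were mouse embryonic fibroblasts (MEFs), embryonic stem cells (ESCs) and reprogramming cells with a control vector (Cont) or with a constitutively active form of the signalling protein SMAD3 (Sm3CA), both sampled after 3, 6, 8 and 10 days. The assay was STRT RNA-seq, which sequences a tag at the 5′ end of each transcript. The comparisons ask how the genes changed from fibroblast to stem cell, and whether active SMAD3 altered that course.

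The MEFs were wild-type cells grown with FGF2 and heparin, and the ESCs were the single line TNG MKOS, grown with LIF. The reprogramming cells were MEFs from chimeric embryos made with TNG MKOS cells. They carried the reprogramming cassette for c-Myc, Klf4, Oct4 and Sox2 (MKOS) with the mOrange reporter, inserted at the Sp3 locus and driven by doxycycline, and a GFP reporter in 1 allele of Nanog, which leaves that allele without function. Both series were mixed with wild-type MEFs, infected with a retroviral vector for blue fluorescent protein (Cont) or for Smad3CA (Sm3CA), cultured in ESC medium with LIF, doxycycline and vitamin C, and sorted for mOrange. The ESC line thus carried the same cassette without doxycycline, the MEFs lacked it, and Cont and Sm3CA differed by the vector alone. The step from MEFs to day 3 combined the cassette, the infection, the medium and the sort, whose parts cannot be told apart. The ESCs were a separately kept line and not a later stage of the reprogramming cells, so steps to ESCs are differences between groups. Comparisons of ESCs with reprogramming cells combined the line, doxycycline, the infection and the sort. Those with MEFs combined the line, the cassette and the medium. These parts cannot be told apart either.

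Ribosomes are assembled in the nucleolus, where RNA polymerase I makes the precursor of the ribosomal RNAs. Small nucleolar RNAs (snoRNAs) in particles with a fixed set of proteins guide the chemical modification of this precursor, and large complexes cut it and load it with ribosomal proteins. Myc raises transcription of many genes of this machinery, and rapidly dividing cells such as ESCs are known for prominent nucleoli.

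The positions are those of the GENCODE annotation of GRCm38, the build named as mm10 in the submitters' processing notes, and cover each whole protein-coding gene. Ncl lies on chromosome 1 from 86344719 to 86359400, Nop58 on chromosome 1 from 59684971 to 59719044 and Rrs1 on chromosome 1 from 9545408 to 9547455. Npm1 lies on chromosome 11 from 33152287 to 33163206, Fbl on chromosome 7 from 28169710 to 28179269 and Nop56 on chromosome 2 from 130274430 to 130279313. Nolc1 lies on chromosome 19 from 46075863 to 46085530, Dkc1 on chromosome X from 75095854 to 75109777, Bop1 on chromosome 15 from 76452989 to 76477277 and Odc1 on chromosome 12 from 17544794 to 17551505. A shared feature of the genes is that 5 of the 10 hold snoRNA genes on their own strand inside their bounds: 5 in Nop56, 4 in Nop58, 3 in Ncl and 1 each in Dkc1 and Odc1. Among the 10088 genes tested that could be matched to a protein-coding gene of the annotation, 184 (1.82%) held a snoRNA gene. The bounds of Bop1 enclose Scx on the opposite strand and overlap the end of Mroh1, and those of Nop56 and Dkc1 overlap the ends of Idh3b and Mpp1. Whether the counting used strand is not given in the sources used here, so reads in these overlaps cannot be assigned with certainty.

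Myc binds the E-box CACGTG and variants such as CACGCG with its partner Max, so promoter windows of RefSeq (GRCm38.p6, 250 bases before to 50 after the start) were searched for both motifs, CACGCG on either strand. The table held a window for 6 of the 10 genes: Ncl, Nop56, Nop58, Nolc1, Dkc1 and Odc1. CACGTG was in 0 of the 6 windows and in 7.15% of the 32851 windows of the table. CACGCG was in 2 of the 6, those of Nolc1 and Odc1, and in 9.27% of all windows. The 250 bases before the start of these 2 genes are shown with the matches in capitals (CGCGTG is CACGCG read on the other strand), and that of Ncl, which fell most of the 10 during reprogramming with Sm3CA, is shown as a window without a match. In Nolc1 the match began 25 bases before the RefSeq start, and in Odc1 the matches began 180 and 101 bases before it. For Nolc1, Odc1 and Ncl this start differs from that of the gene bounds given above. The bounds of Odc1 begin at 17544794, within the 250 bases shown. The windows are chr19:46075597-46075846 (plus strand) for Nolc1, chr12:17544623-17544872 (plus strand) for Odc1 and chr1:86359456-86359705 (minus strand) for Ncl.
Nolc1: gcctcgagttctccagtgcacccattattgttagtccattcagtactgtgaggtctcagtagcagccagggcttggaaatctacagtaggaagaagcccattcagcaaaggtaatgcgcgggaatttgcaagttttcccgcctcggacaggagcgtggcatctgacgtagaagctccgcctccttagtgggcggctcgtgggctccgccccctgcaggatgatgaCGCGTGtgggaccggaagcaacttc
Odc1: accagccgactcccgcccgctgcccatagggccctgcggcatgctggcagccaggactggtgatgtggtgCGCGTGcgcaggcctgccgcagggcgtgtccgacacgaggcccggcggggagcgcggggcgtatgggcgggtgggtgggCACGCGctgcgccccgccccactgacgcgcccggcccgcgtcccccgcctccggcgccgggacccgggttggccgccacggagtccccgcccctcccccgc
Ncl: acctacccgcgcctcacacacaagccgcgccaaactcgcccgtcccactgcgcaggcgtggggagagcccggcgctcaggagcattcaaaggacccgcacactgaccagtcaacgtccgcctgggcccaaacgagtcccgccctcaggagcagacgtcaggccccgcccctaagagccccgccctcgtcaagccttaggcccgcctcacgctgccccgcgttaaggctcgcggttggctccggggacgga
The GC content of the 6 windows ranged from 45.3% to 78%, beside a median of 52.7% over all windows. A match in a window describes its letters and does not show binding. Bases outside the windows and further starts of a gene were not searched. A window without a match therefore does not show that its gene lacks the motif.

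The 30 libraries, each the sum of 3 wells or, on day 10, of 2 wells, held 1008596 to 2296059 reads, and the counts are not corrected for amplification. Summed over 10 fibroblast markers, MEF libraries held 2595 to 4377 CPM (reads of the list scaled to a common library total) and ESC libraries 1.96 to 6.34, with Col1a2, Col3a1, Twist2 and Prrx1 at 0 in the ESCs. Summed over 10 ESC markers, ESC libraries held 17329 to 27202 CPM and MEF libraries 4.96 to 8.40, with Esrrb, Utf1, Lin28a, Sall4 and Fbxo15 at 0 in the MEFs. ESC replicate 2 stood apart, with 10935 genes with a read, the fewest of all libraries, and a mean correlation over genes of 0.896 with the other ESC libraries (0.922 and 0.929 for the others). Sm3CA replicate 2 of day 8 stood apart for the 10 genes, as given below. Neural and choroid plexus markers summed to 2153 CPM in Cont replicate 1 of day 8 and to 511 and 514 CPM in the other Cont libraries of that day. With Sm3CA on day 8 they summed to 115 to 206 CPM. They summed to 989 CPM in Sm3CA replicate 1 of day 10, and to at most 378 CPM in every library outside Cont on day 8 and this one.

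Of the 10 genes, 9 in Cont and 10 with Sm3CA were higher on day 3 than in MEFs, 5 in Cont and 8 with Sm3CA were lower on day 10 than on day 3, and 9 were higher in ESCs than in MEFs. Together they took a median of 0.406% of the reads of a library in MEFs, 1.32% in Cont on day 3, 0.992% in Cont on day 10 and 1.40% in ESCs. Npm1 gave most of these reads, and without it the medians were 0.0919%, 0.257%, 0.163% and 0.304%. Between Cont and Sm3CA 0 of the 10 genes differed on any day in edgeR at an adjusted p under 0.05, while the DESeq2 Wald test called Ncl and Odc1 on day 8, and the edgeR result does not show that the series were alike. The plot of normalized read counts shows all libraries.

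**Figure D1:**
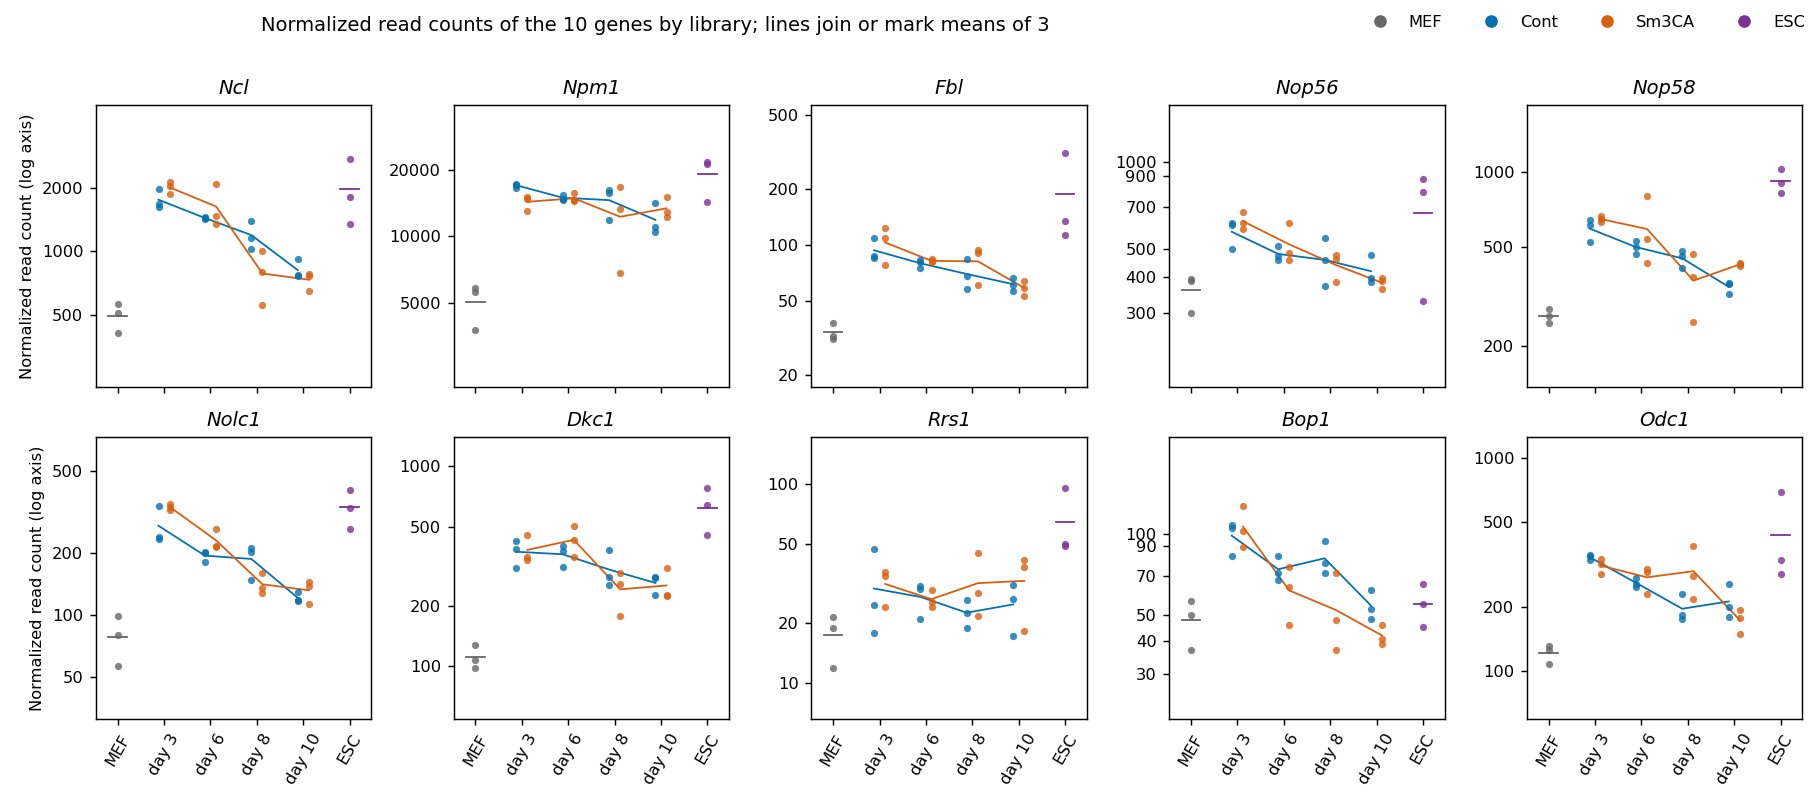
Normalized read counts of the 10 genes (log axis, 1 panel per gene) in MEFs, on each day of reprogramming with Cont or Sm3CA, and in ESCs; each point is 1 library, and lines join or mark the mean of 3. For Ncl the 3 MEF libraries sit between 408 and 560, below every day 3 library of Cont (1634 to 1978), and the Cont libraries of day 10 lie between 760 and 916.

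Between MEFs and day 3 of the control series, 9 of the 10 genes were higher (edgeR, adjusted p under 0.05), against 22.6% of the 10979 genes tested. The log2 fold changes of the 10 ranged from 0.80 for Nop56 to 1.96 for Ncl, with a median of 1.60, beside 0.0014 over all genes. The exception was Rrs1, at 0.88 ± 0.37 (SE; adjusted p = 0.0524). For 9 genes all day 3 libraries lay above all MEF libraries, which was so for 24.4% of all genes, and the groups overlapped for Rrs1. With Sm3CA, 10 of the 10 were higher, against 22.4% of all genes, with log2 fold changes from 0.92 for Nop56 to 2.21 for Nolc1. The Sm3CA call of Rrs1 was the least firm, with adjusted p = 0.0341 (0.0319 to 0.316 over 13 alternative settings, 7 of which lost the call). Since the libraries are bulk samples, more cells with a gene's RNA and more RNA per cell cannot be told apart. Other measures moved with this step, and their part in it was not tested. The summed level of the fibroblast markers was 355 to 523 CPM in Cont on day 3, that of the neural and choroid plexus markers was 29.4 to 35.0 CPM in MEFs and 213 to 304 in Cont on day 3, and mitochondrial genes took 8.14% to 9.09% of reads in MEFs and 17.4% to 19.1% in Cont on day 3. Of the neural markers, Mag, Mog and Snap25 were at 0 in both groups.

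Between day 3 and day 10, a comparison added after the levels had been seen, 5 of the 10 genes fell in Cont (Ncl, Nolc1, Nop58, Bop1 and Odc1), against 8.35% of all genes. With Sm3CA 8 fell, all but Npm1 and Rrs1, against 12.2% of all genes. The median log2 fold change of the 10 was -0.68 in Cont and -0.76 with Sm3CA, beside 0.08 and 0.06 over all genes. In Cont, the day 10 libraries of 9 genes lay below all day 3 libraries, which was so for 17.8% of all genes. The Cont count was 9 with the compared groups alone (Npm1, Fbl, Nop56 and Dkc1 gained), 3 with total counts only (Bop1 and Odc1 lost) and 4 to 5 when 1 library was left out, and in edgeR a difference between the series in this interval was called for 0 of the 10 genes. The Sm3CA count was 4 to 6 when 1 of the 6 libraries was left out. It was 5 without replicate 1 or replicate 2 of day 3, 4 without replicate 2 of day 10 and 5 without replicate 3 of day 10, and Ncl, Nolc1, Bop1 and Odc1 were called each time. In the same interval the summed ESC markers were at 19.7 to 33.1 CPM on day 3 and 299 to 729 on day 10 in Cont, and at 19.6 to 27.5 and 733 to 1729 with Sm3CA. The fibroblast markers were at 355 to 523 and 528 to 1420 CPM in Cont, and at 423 to 612 and 478 to 618 with Sm3CA, and the part of either in the result was not tested.

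The single steps between these days gave fewer calls. In Cont, 0 of the 10 genes passed the threshold from day 3 to 6, from day 6 to 8 or from day 8 to 10 in edgeR or with the DESeq2 Wald test, where 1, 0 and 3 had an unadjusted p under 0.05 and 4.92%, 0.975% and 1.26% of all genes passed in edgeR. The median log2 fold changes of the 10 in these Cont steps were -0.24, -0.18 and -0.28, beside 0.02, 0.03 and -0.0025 over all genes. Of the 10, 0, 1 and 2 had a positive value. With Sm3CA, Bop1 alone was lower from day 3 to 6, by 0.75 ± 0.24 on the log2 scale (SE; adjusted p = 0.0318), against 5.87% of all genes. From day 6 to 8 the 4 genes Ncl, Dkc1, Nolc1 and Nop58 were lower with Sm3CA, against 1.52% of all genes. From day 8 to 10, 0 passed with Sm3CA in either tool, against 2.05% of all genes, with 1 at an unadjusted p under 0.05. The Bop1 call was lost without replicate 2 or 3 of either day, and the 4 calls of day 6 to 8 rested on single libraries. None of them was made without Sm3CA replicate 2 of day 8 or without replicate 3 of day 6, 1 without replicate 1 of day 6, and 2 without replicate 1 of day 8. With the replicate number as a block, Nop58 missed the threshold (adjusted p = 0.0521) and the other 3 passed it.

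ESCs were higher than Cont on day 10 for 9 of the 10 genes, all but Bop1, against 21.5% of all genes. They were higher than Sm3CA on day 10 for 8, all but Bop1 and Npm1, against 18.6%. The Cont count was 7 with total counts only or with the compared groups alone, where Npm1 and Nop56 were lost, and 7 to 9 when 1 library was left out. ESCs against MEFs gave 9 higher genes, again all but Bop1, against 29.1% of all genes, the median of the 10 being 1.97 on the log2 scale beside 0 over all genes. Day 10 itself lay between the ends, since 6 genes in Cont and 8 with Sm3CA were still higher than in MEFs, against 21.9% and 25.7% of all genes. Without MEF replicate 2 the latter count was 5. Compared with day 3, ESCs were higher for the same 4 genes in both series (Fbl, Nop58, Dkc1 and Rrs1), against 23.9% of all genes in Cont and 24% with Sm3CA, and lower for Bop1, against 29.5% and 29.8%. The calls with Sm3CA were not firm: of the 4 higher genes 0 were called with total counts only and 1 (Rrs1) with the compared groups alone, beside 3 and 4 in Cont. The comparisons with day 3 and day 10 share their libraries with those above. Without ESC replicate 2, the library that stood apart, 9 genes were called in the control step from day 10 to ESCs, 8 in the Sm3CA step (Npm1 in place of Rrs1) and 9 in ESCs against MEFs. In the step from day 3 to ESCs, 3 genes were then higher in each series, and they were not the same. In Cont they were Nop58, Dkc1 and Nop56, and with Sm3CA they were Dkc1, Npm1 and Nop56. Of the 4 genes named above, Dkc1 alone was thus kept in both series.

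**Figure D2:**
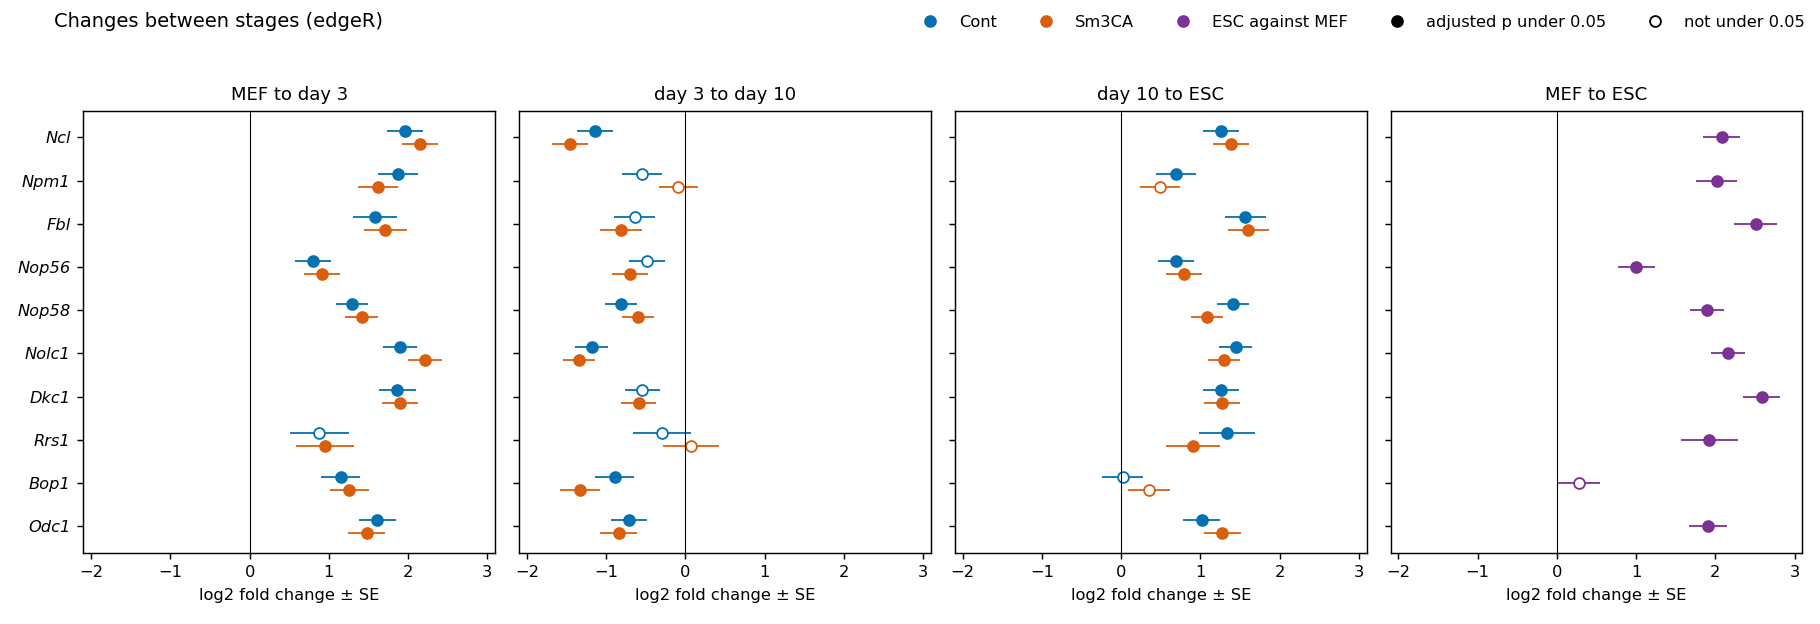
Log2 fold changes (points) with standard errors (bars) of the 10 genes between MEFs and day 3, day 3 and day 10, day 10 and ESCs, and MEFs and ESCs, from edgeR on 30 libraries; filled points have an adjusted p under 0.05. From MEFs to day 3 all points lie to the right of 0, from day 3 to day 10 all but that of Rrs1 with Sm3CA lie to the left, and Bop1 (0.28) is the open point in ESCs against MEFs.

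Ncl encodes nucleolin, an abundant nucleolar protein that binds the rRNA precursor. Its normalized read counts in MEFs were 560, 408 and 510, in Cont on day 3 they were 1634, 1676 and 1978, on day 10 they were 916, 760 and 771, and in ESCs 1357, 2758 and 1807. None of these groups overlapped except Cont on day 3 and ESCs. The rise to day 3 was 1.96 ± 0.23 on the log2 scale (SE; adjusted p = 2.7e-09) and the fall to day 10 was -1.14 ± 0.22 (adjusted p = 0.00021). ESCs lay 1.26 ± 0.22 above Cont on day 10 (adjusted p = 9.4e-06). With Sm3CA the course was 2018 ± 127 on day 3 (SD, n = 3), 1637 ± 394 on day 6, 785 ± 224 on day 8 and 734 ± 72.9 on day 10, so that its largest step was that from day 6 to 8 (-1.07 ± 0.22; adjusted p = 0.0065; -0.86 with adjusted p = 0.0779 without Sm3CA replicate 2 of day 8).

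Npm1 encodes nucleophosmin, a chaperone that carries ribosomal proteins and histones and shapes the outer layer of the nucleolus. Its normalized read counts were 5833, 5580 and 3760 in MEFs, 17303, 17141 and 16584 in Cont on day 3, 14174, 10417 and 11021 on day 10, and 21725, 14238 and 21255 in ESCs. All reprogramming libraries, the lowest of them Sm3CA replicate 2 of day 8 at 6821, lay above the MEF libraries. It rose by 1.87 ± 0.26 on the log2 scale to day 3 in Cont (adjusted p = 9.3e-08), while its change from day 3 to day 10 did not pass the test in either series (-0.55 ± 0.25, adjusted p = 0.123, in Cont and -0.09 ± 0.25, adjusted p = 0.823, with Sm3CA).

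Fbl, Nop56 and Nop58 encode core proteins of the box C/D snoRNA particles, of which fibrillarin, the product of Fbl, is the methyltransferase. Fbl had 31.1, 32.6 and 38.0 normalized read counts in MEFs, 85.6, 86.9 and 109 in Cont on day 3, 56.8, 66.9 and 61.2 on day 10, and 135, 314 and 113 in ESCs. The ESC libraries all lay above those of Cont on days 3 and 10, and ESC replicate 2 was the highest. Fbl was 5.69-fold higher in ESCs than in MEFs (log2 2.51 ± 0.27; adjusted p = 1.7e-10). Nop58 followed the same order, at 281, 263 and 246 in MEFs, 641, 525 and 614 in Cont on day 3, 358, 325 and 354 on day 10, and 826, 1033 and 904 in ESCs, with no overlap between any 2 of these 4 groups. It fell by 0.81 ± 0.20 on the log2 scale from day 3 to day 10 in Cont (adjusted p = 0.0036) and by 0.60 ± 0.20 with Sm3CA (adjusted p = 0.0241). Nop56 moved least of the 3. Its counts were 392, 386 and 299 in MEFs, 605, 616 and 502 in Cont on day 3, 384, 395 and 478 on day 10, and 787, 331 and 878 in ESCs. The day 10 groups overlapped MEFs in both series (0.31 ± 0.23, adjusted p = 0.289, in Cont), and ESC replicate 2 lay within the range of MEFs while the other ESC libraries lay above all other libraries.

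Dkc1 encodes dyskerin, the pseudouridine synthase of the box H/ACA snoRNA particles, which also sits in telomerase, and Nolc1 encodes Nopp140, a chaperone of both kinds of particle. Dkc1 stood at 108, 128 and 98.5 normalized read counts in MEFs, 388, 424 and 311 in Cont on day 3, 279, 227 and 278 on day 10, and 639, 452 and 777 in ESCs. Of the 10 genes it differed most between ESCs and MEFs (6.00-fold; log2 2.58 ± 0.24; adjusted p = 1.4e-12), and it kept a large part of its rise on day 10 (1.32 ± 0.23 against MEFs in Cont, adjusted p = 1.3e-05). Nolc1 stood at 98.9, 56.4 and 80.4 in MEFs, 240, 340 and 235 in Cont on day 3, 117, 129 and 118 on day 10, and 262, 406 and 332 in ESCs. Only Cont on day 3 and ESCs overlapped among these groups. It fell furthest from day 3 to day 10 in Cont (-1.19 ± 0.21; adjusted p = 3.7e-05), and by 1.35 ± 0.21 with Sm3CA (adjusted p = 3.4e-06).

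Rrs1 and Bop1 act in assembly of the large subunit, Rrs1 in the particle with 5S rRNA and Bop1 in a complex with Pes1 and Wdr12. Rrs1 had 18.9, 11.9 and 21.6 normalized read counts in MEFs, the lowest mean of the 10 genes there, 47.2, 24.6 and 17.9 in Cont on day 3, 17.3, 31.1 and 26.4 on day 10, and 50.2, 95.7 and 48.9 in ESCs. All reprogramming groups overlapped each other in Rrs1, while all ESC libraries lay above all other libraries. In edgeR, ESCs were higher than MEFs (1.92 ± 0.36 on the log2 scale; adjusted p = 1.5e-05) and than Cont on day 10 (1.34; adjusted p = 0.0015). Bop1 departed from the common pattern. Its counts were 50.0, 36.9 and 56.2 in MEFs, 82.9, 108 and 105 in Cont on day 3, 61.7, 52.6 and 48.1 on day 10, and 54.8, 65.0 and 45.0 in ESCs. It was higher on day 3 than in MEFs (1.15 ± 0.25; adjusted p = 0.00019), and MEFs, day 10 and ESCs overlapped, with ESCs 0.28 ± 0.26 above MEFs (adjusted p = 0.366) and, under scaling to total counts alone, on the other side of 0. With Sm3CA its mean fell from 106 ± 19.4 (SD, n = 3) on day 3 to 61.6 ± 14.8, 52.1 ± 17.7 and 41.9 ± 3.56 on days 6, 8 and 10 (-1.33 ± 0.25 from day 3 to 10; adjusted p = 0.00010).

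Odc1, the enzyme that starts polyamine synthesis, had 108, 131 and 125 normalized read counts in MEFs, 332, 346 and 350 in Cont on day 3, 180, 200 and 257 on day 10, and 331, 694 and 285 in ESCs. Day 3 lay above MEFs and above day 10 without overlap, and ESCs overlapped day 3. It rose by 1.61 ± 0.23 on the log2 scale to day 3 (adjusted p = 3.4e-07) and fell by 0.72 ± 0.23 from there to day 10 (adjusted p = 0.0209). The latter call was lost without Cont replicate 3 of day 3, without replicate 1 or 2 of day 10, with 1 well per library and with total counts only (adjusted p up to 0.171).

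In each gene but Bop1, MEFs had the lowest mean of the 10 groups, and for 7 genes (all but Nop56, Rrs1 and Bop1) the MEF libraries did not overlap the next lowest group. ESCs had the highest mean for 7 genes, and Sm3CA on day 3 for Ncl, Nolc1 and Bop1. Of the 90 pairs of neighbouring groups in these orders, 76 overlapped. How often such separations occur over all genes was not counted, so these counts are description only. Over the 10 group means of log2 CPM, each gene followed the mean of the other 9 with Pearson's r from 0.89 to 0.98, except Rrs1 (0.73) and Bop1 (0.56). The pair most alike was Nop56 and Nolc1 (r = 0.98) and the pair least alike Rrs1 and Bop1 (r = 0.04). These values describe 10 group means that share libraries and scaling, and carry no test.

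Sm3CA against Cont asks whether active SMAD3 altered these genes on a given day. On day 3 the 10 log2 differences ran from -0.25 (Npm1) to 0.31 (Nolc1), on day 6 from -0.23 (Bop1) to 0.25 (Nolc1), on day 8 from -0.62 (Bop1) to 0.60 (Odc1) and on day 10 from -0.34 (Bop1) to 0.42 (Rrs1), with standard errors of 0.16 to 0.35. In edgeR 0 of the 10 passed on any of the 4 days, against 0.0195%, 0.00977%, 1.04% and 3.58% of the 10237 genes tested, and 0, 0, 4 and 0 had an unadjusted p under 0.05, as did 523, 426, 1559 and 1630 of all genes. The change in the difference from day 3 to day 10 was called for 0 of the 10 in edgeR and with the DESeq2 Wald test, against 1.01% of all genes, with 0 of the 10 and 1236 of all genes at an unadjusted p under 0.05. The difference between the series in the step from day 6 to 8, added after the calls of that step had been seen, was called for 0 of the 10 and for 0% of all genes (0 of the 10 with the Wald test as well), with 4 of the 10 and 936 of the 10237 genes at an unadjusted p under 0.05. The calls of that step in Sm3CA and their absence in Cont are therefore not shown to differ.

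**Figure D3:**
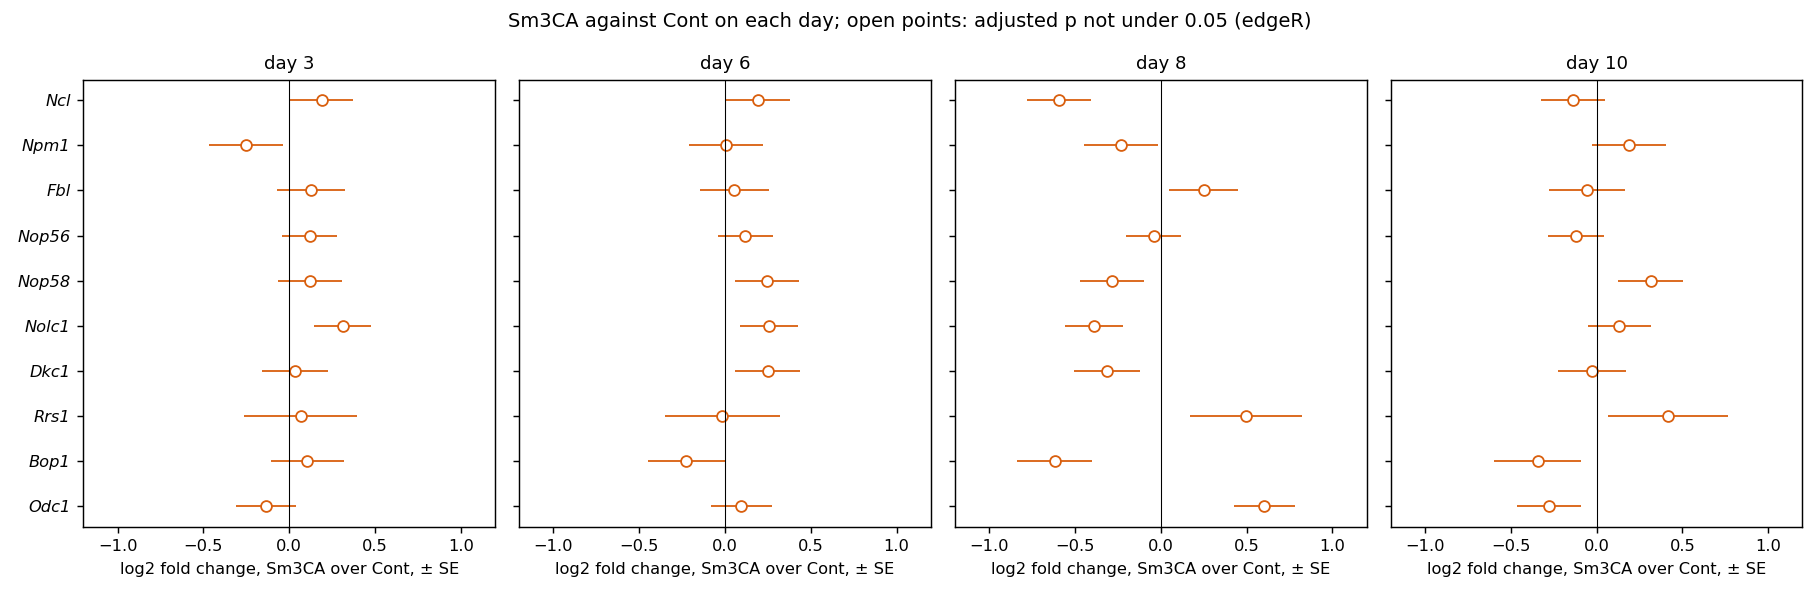
Log2 fold changes of Sm3CA over Cont (points) with standard errors (bars) for the 10 genes by day (3, 6, 8, 10), from edgeR on the 24 reprogramming libraries; all points are open, as no adjusted p was under 0.05. Day 8 has the widest spread, from -0.62 for Bop1 to 0.60 for Odc1.

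Day 8 came closest to a difference. Ncl stood at 1163, 1394 and 1031 normalized read counts in Cont and at 802, 554 and 1000 with Sm3CA, without overlap (-0.59 ± 0.19; adjusted p = 0.102). Odc1 stood at 231, 175 and 183 in Cont and at 279, 385 and 219 with Sm3CA, where the lowest Sm3CA library lay below the highest Cont library (0.60 ± 0.18; adjusted p = 0.0840). The DESeq2 Wald test called both genes (adjusted p = 0.0383 and 0.0406). Both values leaned on single libraries: without Sm3CA replicate 3 both were called, and without Sm3CA replicate 2 neither was, with adjusted p = 0.419 for Ncl and 0.475 for Odc1. Of the 10 genes, 1 (Ncl) had day 8 libraries of Sm3CA all below those of Cont, and 8.35% of all genes did. The summed neural and choroid plexus markers were at 511 to 2153 CPM in Cont on day 8 and at 115 to 206 with Sm3CA. Their part in any difference of day 8 was not tested.

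Sm3CA replicate 2 of day 8 was the lowest of its group for Ncl, Npm1, Nop58 and Dkc1 and the highest for Fbl, Rrs1, Bop1 and Odc1. Its Npm1 count was 6821, beside 13294 and 16646 in the other libraries. The same was seen in each of its wells for all of these genes but Fbl. The lowest well of Fbl there (69.0 CPM) lay below the highest of replicate 1 (69.8 CPM). In the wells of replicate 2, Npm1 lay at 5544 to 5711 CPM and Odc1 at 312 to 331 CPM. In the wells of the other libraries they lay at 9517 to 11135 and 121 to 222 CPM. ESC replicate 2 likewise held Npm1, Nop56 and Dkc1 at the lowest and the other 7 genes at the highest level of its group. Its wells had 6977 to 7275 CPM of Npm1 and 1331 to 1492 CPM of Ncl, beside 11395 to 12642 and 702 to 1095 CPM in the wells of the other ESC libraries.

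**Figure D4:**
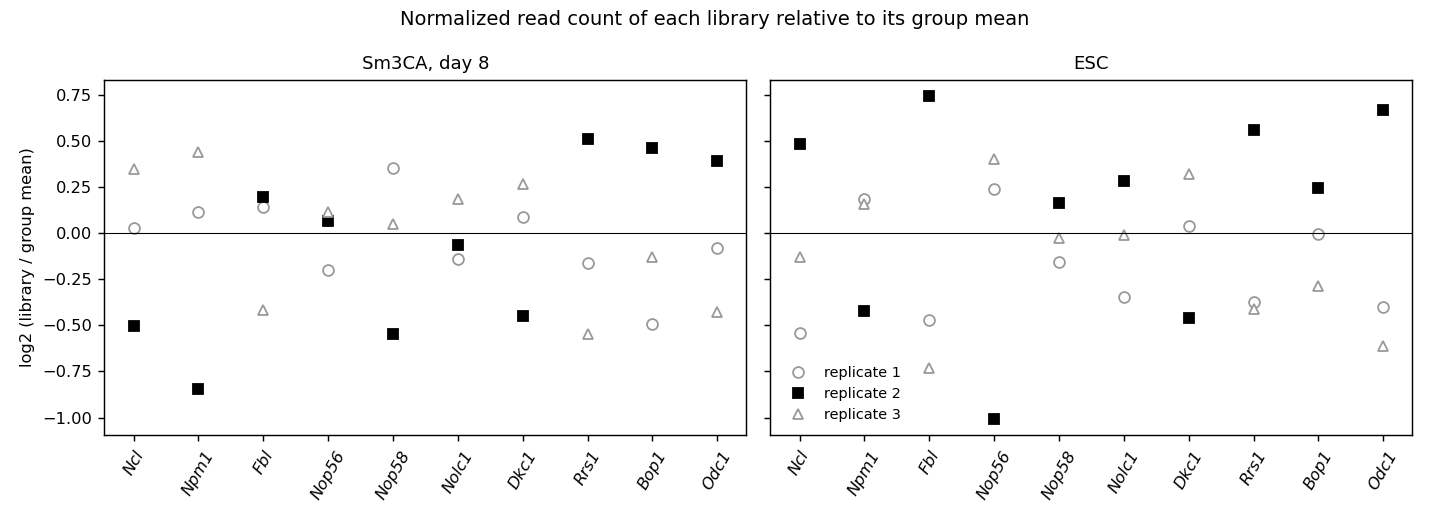
Log2 ratio of each library's normalized read count to the mean of its group, for the 10 genes in Sm3CA on day 8 and in ESCs; symbols mark the 3 replicates, with replicate 2 filled. In both groups replicate 2 lies at an end of the range for most genes, such as Npm1 in Sm3CA on day 8 (6821, beside 13294 and 16646).

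Other genes of ribosome production, in lists chosen with earlier results of these data known, moved with the 10. From MEFs to Cont on day 3, 16 of 20 tested genes of RNA polymerase I and its cofactors rose and 0 fell, the median of the list being 1.29 on the log2 scale. Polr1e and Polr1b, subunits of the polymerase, led with 2.81 ± 0.28 (adjusted p = 4.4e-11) and 2.73 ± 0.33 (adjusted p = 4.0e-09). Of 16 other proteins of snoRNA particles and their assembly 14 rose, with a median of 1.24, led by Nhp2, a core protein of box H/ACA particles (1.92 ± 0.21), and Shq1, an assembly chaperone of dyskerin (1.89 ± 0.37). Of 53 genes of the small subunit processome and 40S assembly 47 rose, with a median of 1.40, led by Rcl1 (2.23 ± 0.30) and Nat10, the acetyltransferase of 18S rRNA (2.19 ± 0.25). Of 61 genes of 60S assembly 55 rose, with a median of 1.42, led by Lyar (3.04 ± 0.27) and Ddx31 (2.79 ± 0.31). None of the tested genes of these 4 lists fell. Across all genes 2480 (22.6%) rose and 2290 fell. With Sm3CA 15, 15, 49 and 53 genes of the 4 lists rose and 0 fell.

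From day 3 to day 10 the 4 lists moved down in part, with 9 of 20, 7 of 16, 20 of 53 and 29 of 61 lower in Cont and 8, 8, 23 and 31 lower with Sm3CA, beside 8.35% and 12.2% of all genes. The median log2 fold changes ran from -0.69 to -0.51 in Cont and from -0.72 to -0.48 with Sm3CA, beside 0.08 and 0.06 over all genes. Against this, Taf1b and Znrd1 of the polymerase I list rose in both series. In ESCs against MEFs, 15, 14, 44 and 49 genes of the lists were higher and 0 were lower, with medians of 1.42, 1.40, 1.10 and 1.27, beside 29.1% higher of all genes and a median of 0. The genes with the largest changes there were Polr1b (2.49) and Taf1d (2.49), Gar1 (3.79) and Coil (3.13), Utp14a (2.67) and Heatr1 (2.43), and Urb1 (3.32) and Lyar (2.51). Between Cont on day 10 and ESCs the differences were mixed, with 10, 10, 19 and 29 genes higher in ESCs and 3, 0, 2 and 5 lower, beside 2363 (21.5%) higher and 3326 lower of all genes. The 10 lower genes, named after their values were seen, were Taf1b, Cd3eap, Taf1c, Rrp7a, Utp11l, Ddx24, Nop16, Nol12, Ddx31 and Eif6.

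**Figure D5:**
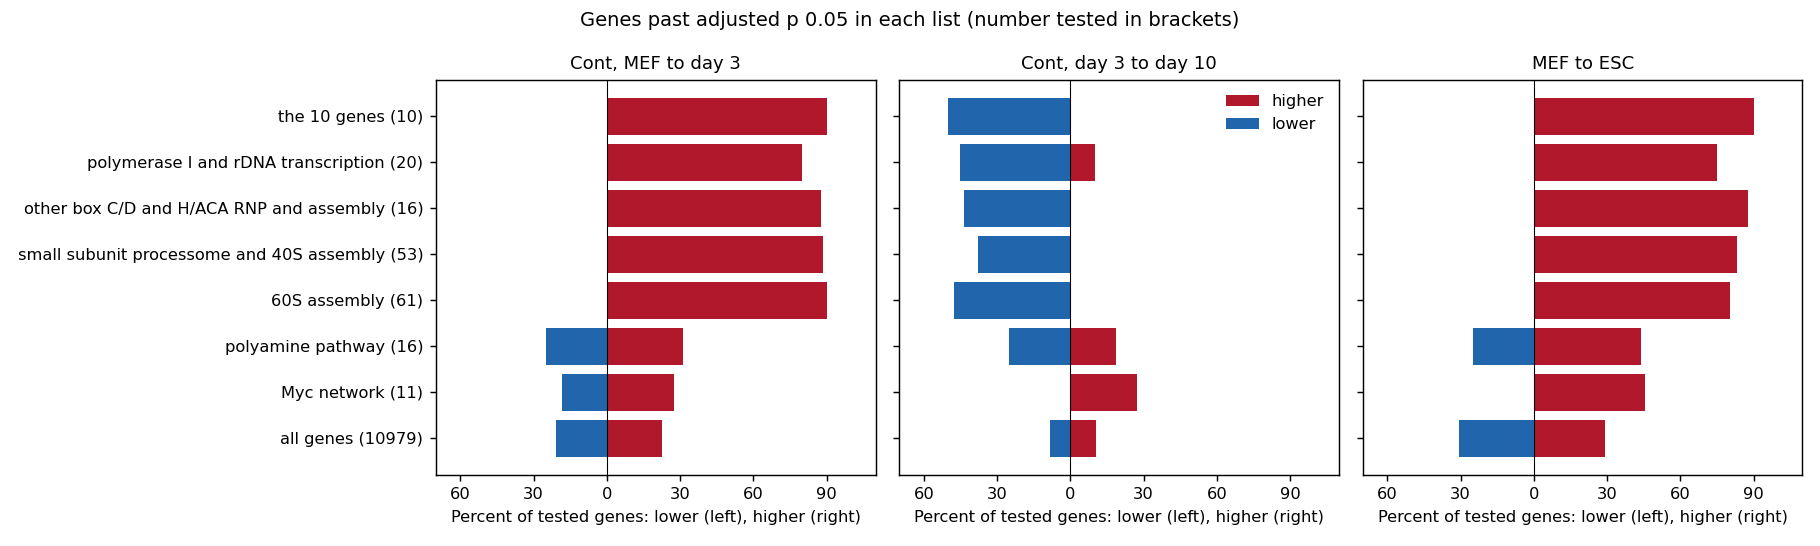
Share of the tested genes of each list (number in brackets) with an adjusted p under 0.05, higher to the right and lower to the left, for Cont from MEFs to day 3, Cont from day 3 to day 10, and MEFs to ESCs. The 4 lists of ribosome production extend to the right in the first and last panel and mainly to the left in the middle one, as do the 10 genes, while the polyamine list and all genes (2480 higher and 2290 lower in the first panel) extend both ways.

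The polyamine pathway did not move as 1 group with Odc1. From MEFs to Cont on day 3, 5 of its 16 tested genes rose (Amd2, Srm, Sms, Sat1 and Dhps) and 4 fell (Adc, Paox, Oaz2 and Mtap), beside 2480 higher and 2290 lower of all 10979 genes, and the median of the list was -0.46 on the log2 scale. Amd2, a decarboxylase that supplies the aminopropyl donor, rose by 1.54 ± 0.22 (adjusted p = 2.6e-07) and Srm, spermidine synthase, by 1.28 ± 0.23 (adjusted p = 2.0e-05). Adc went from 18.1 ± 6.84 normalized read counts (SD, n = 3) to 1.00 ± 0.26, and Paox, an oxidase of acetylated polyamines, from 5.52 ± 1.96 to 0.271 ± 0.469, both near the limit of detection on day 3. In ESCs against MEFs 7 were higher and 4 lower (Arg1, Mtap, Adc and Sat1), beside 3198 higher and 3344 lower of all genes. Sms, spermine synthase, was higher by 2.45 ± 0.20 (adjusted p = 4.1e-14). Arg2, an arginase, went from 0.658 ± 0.583 to 17.4 ± 4.02 normalized read counts. Arg1 stood at 56.9 ± 22.0 in MEFs and at 0 in all 3 ESC libraries.

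Reads of Myc itself fell from MEFs to day 3, the step in which 9 of the 10 genes rose in Cont. They can include transcripts of the cassette, and how far 5′ reads of the cassette are counted as Myc was not tested. Myc had 92.2, 73.8 and 70.9 normalized read counts in MEFs, 25.0, 37.6 and 29.3 in Cont on day 3, 17.3, 23.9 and 21.7 on day 10, and 48.4, 47.0 and 55.3 in ESCs, with no overlap between any 2 of these 4 groups. In edgeR it fell by 1.26 ± 0.31 on the log2 scale from MEFs to Cont on day 3 (adjusted p = 0.00087) and by 0.98 ± 0.30 to Sm3CA on day 3 (adjusted p = 0.0069). ESCs against MEFs were not called (-0.55 ± 0.30; adjusted p = 0.110). ESCs were higher than day 10 in Cont (1.26; adjusted p = 0.0016) and with Sm3CA (1.98; adjusted p = 2.3e-05). From day 3 to day 10, Myc fell with Sm3CA (-1.54; adjusted p = 0.0014) and was not called in Cont (-0.56; adjusted p = 0.270). On day 8 it stood at 21.5, 33.8 and 38.2 in Cont and at 4.33, 4.29 and 15.3 with Sm3CA, a difference of -2.03 ± 0.37 (adjusted p = 0.0029). Those Sm3CA values came from 7, 7 and 19 reads, and 1.04% of all genes were called on that day. On days 3, 6 and 10 the differences of Myc (0.28, -0.67 and -0.73) were not called in edgeR. The difference between the series in its step from day 6 to 8 was not called either (-1.36 ± 0.52; adjusted p = 0.419). Mycn, the relative of Myc of early embryos, went from 3.61 ± 4.57 normalized read counts in MEFs to 0 in all Cont libraries of day 3 and to 202 ± 116 in ESCs. Of the 11 tested genes of the Myc network, 3 rose from MEFs to Cont on day 3 (Max, Mxd3 and Mxi1) and 2 fell (Myc and Mycn), beside 2480 and 2290 of all 10979 genes, while in ESCs against MEFs 5 were higher (Mycn, Mxd3, Mxi1, Mnt and Mga) and 0 were lower, beside 3198 and 3344 of all genes. Max, the partner of Myc, rose by 1.01 ± 0.31 to day 3 (adjusted p = 0.0065). Mxd3, which pairs with Max and represses, stood at 0.864 ± 1.50 in MEFs, 9.25 ± 0.445 in Cont on day 3 and 5.11 ± 3.53 in ESCs. Mxi1, of the same family, rose by 1.30 ± 0.43 to day 3 (adjusted p = 0.0124).

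Between Sm3CA and Cont, the 4 lists of ribosome production and the polyamine list held 4 called genes over the 4 days, named after their values were seen. They were 1 of 53 genes of the small subunit list on day 8, when 1.04% of all genes were called, and 1 of 20, 1 of 61 and 1 of 13 genes of the polymerase I, 60S and polyamine lists on day 10, when 3.58% were. On day 10, 5 of 10 fibroblast markers were lower and 2 of 9 ESC markers higher with Sm3CA, whose part in these differences was not tested. Fcf1 of the small subunit list was higher with Sm3CA on day 8 (539 ± 137 beside 340 ± 22.1 normalized read counts, SD, n = 3; adjusted p = 0.0452). On day 10, Cd3eap, a polymerase I subunit (16.4 ± 3.55 beside 40.6 ± 10.3; adjusted p = 0.0084), Ddx24 of the 60S list (99.4 ± 21.0 beside 176 ± 35.0; adjusted p = 0.0378) and Sat1, which acetylates polyamines for export and breakdown (1105 ± 53.5 beside 1698 ± 146; adjusted p = 0.0302), were lower with Sm3CA.

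Outside the 10 genes, those whose profile over the 10 group means was most like the mean profile of the 10 were Pdcd11 (Pearson's r = 0.98), Gm15645 (0.97), Wdr75 (0.97), Rsl1d1 (0.97), Qrsl1 (0.97), Tcof1 (0.97), Heatr1 (0.97), Dcps (0.96), Gart (0.96) and Gtpbp4 (0.96). Of the 10979 genes tested, the 4 lists of ribosome production above held 20, 16, 53 and 61. Of the 10 most alike genes, 6 belong to these lists: Pdcd11, Wdr75 and Heatr1 to the small subunit list, Rsl1d1 and Gtpbp4 to the 60S list and Tcof1 to the polymerase I list. The other 4 are Gm15645, Qrsl1, Dcps and Gart, of which Gart encodes an enzyme of purine synthesis and Dcps a scavenger of mRNA caps. Their group means share libraries and scaling with those of the 10 genes, and no test was made.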

How the data were processed

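STRT RNA-seq had been performed by the authors on 84 wells, and per the labels the deposited values are read counts per gene, not normalized, from reads aligned with Bowtie 0.12.9 to mm10, with DESeq2 1.6.3 also named in the submitters' processing notes. The counting tool is not given in the sources used here, and counts are of reads and not molecules, so that amplification is part of the spread. Wells of a replicate were summed to 30 libraries in 10 groups of 3 (R 4.3.3, Python 3.11.15, pandas 2.3.3).

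Differences were tested with edgeR 4.0.16 (TMM, filterByExpr, quasi-likelihood test) and adjusted by Benjamini-Hochberg over all genes tested, with a threshold of 0.05. Sm3CA was compared with Cont in 1 fit of the 24 reprogramming libraries (10237 genes), and stages were compared in 1 fit of all 30 (10979 genes). There were 16 planned comparisons, and 7 were added after the data were seen. Levels are counts divided by DESeq2 1.42.0 size factors. Given errors are SDs of levels and SEs of log2 fold changes. The SEs were calculated back from the edgeR test, as the absolute log2 fold change divided by the square root of its F statistic. The fits were also run on simulated counts with a common spread and few genes changed. That setting is simpler than these data, and its outcome is not used here.

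The series text pairs replicate numbers over the days of a series. Same-numbered libraries correlated in their deviations from the group means by -0.083 to 0.070 within Cont and -0.064 to 0.14 within Sm3CA. The members and lists were chosen with earlier results of these data known. Named were all 10 members, Myc, from each list the 2 called genes that changed most in each direction from MEFs to Cont on day 3 and from MEFs to ESCs, and the 10 other genes whose profile was most like that of the members. Alternatives were scaling by DESeq2 size factors or total counts, no filter, a replicate block, 1 well per library, the compared groups alone, the DESeq2 Wald test, a threshold of 0.01 and leaving out each library.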

Additional observations from a re-analysis of the deposited data

How the results depend on the processing

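Over the 107 changes of the 10 genes with an unadjusted p under 0.05 in edgeR and their alternatives, 1270 values kept direction and side of the threshold, 127 lost the call, 18 gained one and 0 reversed. Of the changes with a larger p, 57 took the opposite sign under at least 1 alternative, among them that of Bop1 in ESCs against MEFs and from day 10 to ESCs with total counts only. The counts of called genes that moved by over 1.5 times were as follows, and the cause was not tested. With total counts only, the count went to 0 for Sm3CA from day 3 to 6, 1 for Sm3CA from day 6 to 8, 3 for Cont from day 3 to 10 and 1 for Sm3CA from day 3 to ESCs. With no filter on low counts it was 0 for Sm3CA from day 3 to 6, 2 from day 6 to 8 and 1 from day 8 to 10. With 1 well per library it was 1 for Sm3CA against Cont on day 8, 2 for Sm3CA from day 6 to 8 and 5 from day 3 to 10. With the compared groups alone it was 2 for Cont from day 3 to 6 and 9 from day 3 to 10, and for Sm3CA 2 from day 3 to 6, 2 from day 6 to 8 and 2 from day 3 to ESCs. The DESeq2 Wald test gave 2 for Sm3CA against Cont on day 8 and 2 for Sm3CA from day 3 to 6. At a threshold of 0.01, Sm3CA had 0 from day 3 to 6, 1 from day 6 to 8, 4 from day 3 to 10, 5 from MEFs to day 10 and 3 from day 3 to ESCs. With the replicate block the count of Sm3CA from day 6 to 8 was 3 (Nop58 lost), and no other call of the 10 genes changed.

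Leaving out 1 library gave 0 to 2 called genes for Sm3CA against Cont on day 8, and for Sm3CA 0 to 1 from day 3 to 6, 0 to 3 from day 6 to 8, 0 to 1 from day 8 to 10 (Odc1 without Sm3CA replicate 3 of day 8), 4 to 6 from day 3 to 10, 5 to 8 from MEFs to day 10 and 3 to 6 from day 3 to ESCs (3 without Sm3CA replicate 2 of day 3). With total counts only, the median log2 fold change of all genes was -0.57 in Cont from day 10 to ESCs, beside -0.15 with TMM, and -0.26 in ESCs against MEFs, beside 0, where the median of the 10 genes lay 1.97 above that of all genes under both. From MEFs to Cont on day 3 the standard error of Rrs1 was 0.37 on the log2 scale, beside 0.21 to 0.27 for the other 9 genes.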
